A study of Bos taurus with 6 samples.

Results

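The comparison set bovine late morulae in which NOTCH1 had been knocked down against late morulae that had received a nonspecific small interfering RNA. It used 4 of the 6 RNA-seq libraries of the study, 2 for the NOTCH1 knockdown and 2 for the control. Its members were the 12101 of 15371 named rows of the deposited table whose mean over all 6 libraries reached 10. SLC16A5, at a mean of 9.99, lay just below that minimum. All embryos came from in vitro fertilization and were collected on day 6. The control embryos had been injected with a nonspecific small interfering RNA and the knockdown embryos with one against NOTCH1, and 15 embryos were pooled for each library. The remaining 2 libraries came from embryos injected with a small interfering RNA against RBPJ, and they entered the fit for a shared estimate of the spread. No strain, parent or oocyte source was named in the labels, and nothing there said whether the 2 libraries of a group came from separate collections, so that p-values measure the spread between these pools, which may be technical. The deposited values are normalized abundances on the scale of read counts, called scaled counts here.

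NOTCH1 is a receptor at the cell surface that is cut after it binds a ligand of the Delta or Jagged type on a neighbouring cell. The freed intracellular part moves to the nucleus, joins the DNA-binding protein RBPJ and a Mastermind coactivator, and switches on target genes such as those of the HES and HEY families. A late morula is a compacted ball of cells at the point where the outer cells polarise and begin to form trophectoderm, while inner cells keep pluripotency factors and will later yield epiblast and hypoblast. The question put to these data was which transcripts depend on NOTCH1 at that stage.

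The totals of the 4 libraries ran from 10365700 to 10815600 scaled counts. The median absolute difference between the 2 libraries of a group was 0.221 (log2) for the controls and 0.175 for the knockdown. Transcripts of an embryo at this stage were plentiful: POU5F1, the pluripotency factor, had 10911 and 11593 in control embryos, compared with 12942 and 12817 in knockdown embryos. KRT8, a keratin of the outer epithelium, had 11997 and 10629.9 in the controls and 15897 and 12502 with NOTCH1 knocked down. PTPRC, which marks white blood cells, stayed between 0.00 and 7.39 in these 4 libraries, and CD3E, of T cells, between 0.00 and 3.27. CSF1R, of the same marker list, was not low, with 1156 and 1829 in the controls and 843 and 976 in the knockdown. Libraries differed in transcripts of few counts. The median deviation from a gene's own mean was taken for the 1524 genes with a mean of 10 to 30. It was -0.08 (log2) in replicate 1 of the knockdown and 0.06 in replicate 2. It was 0.00 and 0.06 for the controls, and 0.02 and 0.11 for embryos injected against RBPJ. For the 2348 genes with a mean of 1000 or more it was 0.04 and 0.02 in the knockdown. There the controls had -0.03 and -0.002, and embryos injected against RBPJ -0.01 and -0.01.

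No gene passed an adjusted p below 0.05 in the NOTCH1 knockdown (limma, 0 of 12101, 0.0%). At an unadjusted limma p below 0.05 stood 881 genes, 7.28% of those tested, with 552 (4.56%) higher and 329 (2.72%) lower in the knockdown. With the replicate number as a block, 135 genes passed (limma, adjusted p below 0.05; 86 higher and 49 lower), 48 of them named here, but the labels do not say whether a number marks a shared collection. Without the block the smallest adjusted p was 0.348, shared by 18 genes. Both knockdown libraries lay above both controls for 2256 genes (18.6%) and below both for 2085 (17.2%). These shares are the background for the counts of gene groups below, where a group's share near them is no finding about that group. Fold changes below are log2 differences of (value + 1), and those of genes with few counts are understated. The count at an unadjusted p depended on single libraries. Without replicate 1 of the knockdown it was 229 higher and 204 lower, and without replicate 2 of the control it was 822 higher and 410 lower.

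Differences of 2-fold or more with no overlap between the groups were found for 88 genes upward (0.727%) and 109 downward (0.901%). Of these, 81 and 101 had a mean between 10 and 100, where the median standard error of a fold change was 0.391. In the 2348 genes whose mean reached 1000, where that error was 0.114, none differed 2-fold with groups apart. At that level 176 genes were higher and 29 lower at an unadjusted limma p below 0.05. In the plot of fold change against level, the spread narrows from left to right, and the coloured points on the right lie mostly above zero.

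**Figure D1:**
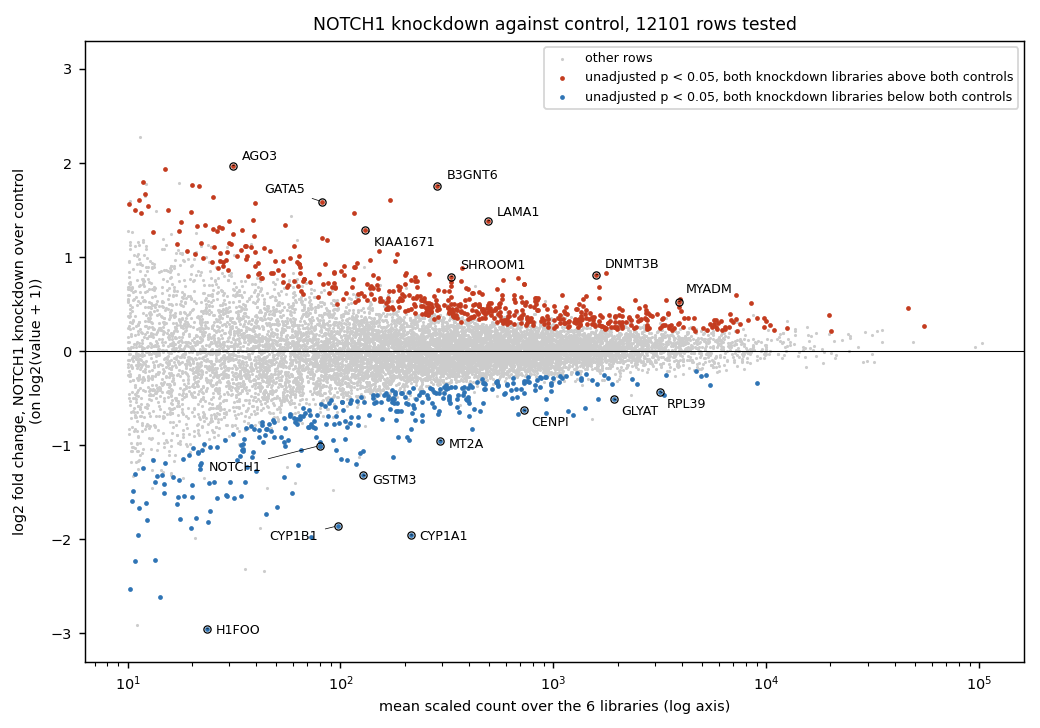
Log2 fold change of the NOTCH1 knockdown over the control (vertical axis, on log2(value + 1)) against the mean scaled count over the 6 libraries (horizontal log axis) for the 12101 rows tested, one point per row. Coloured points have an unadjusted limma p below 0.05 and 2 knockdown libraries on one side of both controls, and none of them passed after adjustment; circled points are named in the text.

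NOTCH1 itself, the targeted transcript, had 69.6 and 139.8 in the control libraries against 48.0 and 49.5 after knockdown. Both knockdown libraries were lower than both controls, and they lay close together, but the 2 controls lay further apart than their mean lay from that of the knockdown. The group means were 105 ± 49.6 (SD, n = 2) without and 48.8 ± 1.04 (SD, n = 2) with the knockdown, so that the ratio of the means was 0.466. The log2 fold change, taken instead as the difference of mean log2(value + 1), was -1.003 ± 0.42 (SE) and did not pass (limma, adjusted p = 0.637). Without replicate 1 of the control it was -1.50, and without replicate 2 of the control -0.51. Embryos injected against RBPJ had 50.0 and 125, one library at the level of the knockdown and one at the level of the higher control.

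The other receptors and the ligands showed no common direction. NOTCH2, a second receptor of the same build, had 193 and 129 in control embryos, compared with 128 and 102 in knockdown embryos. NOTCH4 had 34.8 and 38.2 in the controls and 52.1 and 50.6 with NOTCH1 knocked down; in both genes the groups lay apart, with fold changes of -0.47 and 0.48 that did not pass. NOTCH3 had 46.4 and 69.9 in the control libraries against 67.5 and 72.1 after knockdown, with overlap. JAG2, the ligand with the smallest p here, had 1186 and 1169.6 in control embryos, compared with 1471 and 1346 in knockdown embryos and a fold change of 0.26 ± 0.11 (SE). JAG1, another Jagged ligand, had 281 and 335 in the controls and 260.2 and 321 with NOTCH1 knocked down, so the groups overlapped. DLL3, a ligand that is thought to act within its own cell, had 108 and 104 in the control libraries against 103 and 75.4 after knockdown. DLK2, a related protein, had 52.9 and 108 in control embryos, compared with 88.8 and 67.9 in knockdown embryos. The ligands DLL1 and DLL4 and the related DLK1 were under the minimum, with at most 9.50 in any of the 4 libraries. Of the 8 members tested, 2 lay higher and 3 lower in both knockdown libraries than in both controls (background 18.6% and 17.2%). The median of the list, -0.02, ran from -0.19 without replicate 1 of the control to 0.14 without replicate 2 of the control.

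Genes that process the receptor or set its turnover had a median near that of all genes. Of 23 tested, 9 lay higher and 3 lower in both knockdown libraries than in both controls (background 18.6% and 17.2%), with a median fold change of 0.06 that was 0.12 without replicate 2 of the knockdown. NUMBL, a relative of the NOTCH inhibitor NUMB, had 78.1 and 121 in the controls and 167 and 153 with NOTCH1 knocked down, above both controls in each knockdown library. NEURL1, a ubiquitin ligase that acts on NOTCH ligands, had 31.4 and 37.9 in the control libraries against 13.5 and 15.2 after knockdown, with a fold change of -1.22 ± 0.47 (SE) in a gene of few counts. In the nuclear complex, RBPJ had 447 and 391 in control embryos, compared with 361 and 399.6 in knockdown embryos and overlapped between groups. TLE3, a corepressor of the Groucho type that binds HES proteins, had 1123 and 1101 in the controls and 1427 and 1316 with NOTCH1 knocked down. Its relative TLE2 had 145 and 122 in the control libraries against 208 and 179 after knockdown. Their fold changes were 0.30 and 0.53, and 6 lay higher and 1 lower in both knockdown libraries than in both controls among the 21 members of that list.

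NOTCH target genes lay on both sides of the control. HES1, a repressor and the best-known target, had 275 and 345 in control embryos, compared with 387 and 357 in knockdown embryos, which is slightly higher in the knockdown and without overlap. HEYL, another repressor of this family, had 87.9 and 52.3 in the controls and 106 and 154 with NOTCH1 knocked down (fold change 0.90 ± 0.31, SE). HEY1 and HEY2, its relatives, were lower in both knockdown libraries. HEY1 had 116 and 163 in the control libraries against 94.9 and 113 after knockdown. HEY2 had 72.9 and 50.2 in control embryos, compared with 30.7 and 39.8 in knockdown embryos, with fold changes of -0.41 and -0.77. HES7 overlapped between groups and was uneven within them, with 8.22 and 62.5 in the controls and 2.17 and 10.9 with NOTCH1 knocked down. HES2 and HES6 overlapped between groups, with fold changes of -0.09 and -0.18. The targets NRARP, HES4 and HES5 were under the minimum mean, and HES5 was listed at 0 in all 4 libraries.

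MYC, a growth-promoting transcription factor, had 93.0 and 115 in the control libraries against 61.2 and 46.5 after knockdown, so that every knockdown library was lower than every control. It had 137 and 102 in the RBPJ knockdown, and the direct contrast of the 2 knockdowns was -1.13 (log2; limma, adjusted p = 0.826). ID3, an inhibitor of basic helix-loop-helix factors, had 47.6 and 51.0 in control embryos, compared with 7.14 and 35.6 in knockdown embryos, while ID1 and ID2 overlapped, at fold changes of 0.04 and 0.17. GATA3 and CDX2, trophectoderm factors that have been described as NOTCH targets, were higher in both knockdown libraries. GATA3 had 577 and 515 in the controls and 1018 and 856 with NOTCH1 knocked down. CDX2 had 654 and 744 in the control libraries against 976 and 832 after knockdown. The cell cycle genes CCND1 and CDKN1A had fold changes of 0.53 and -0.19, the former at no more than 15.1 in any of the 4 libraries, and NFKB2, a subunit of NF-kappa-B, one of 0.08. Of 17 targets tested, 5 lay higher and 4 lower in both knockdown libraries than in both controls, against a background of 18.6% and 17.2%, and the list's median was 0.04. That median ran from -0.15 without replicate 1 of the control to 0.22 without replicate 2 of the control.

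**Figure D2:**
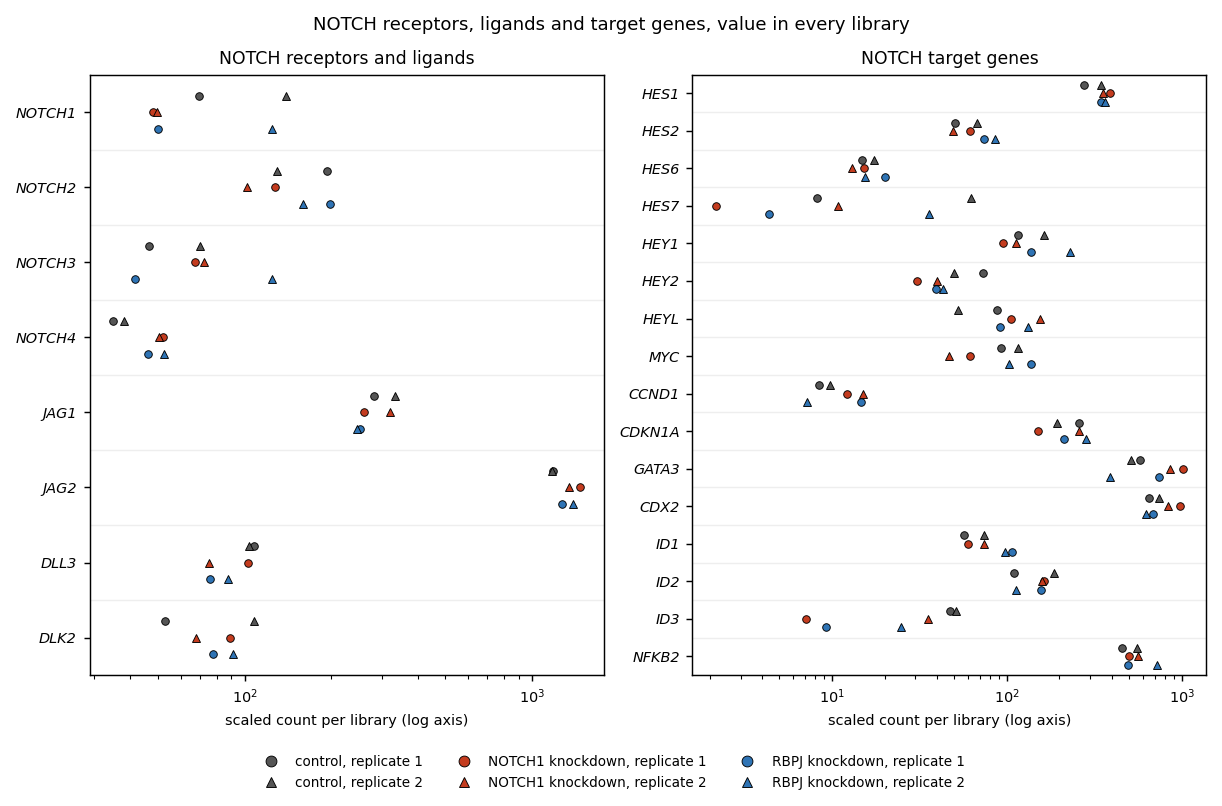
Scaled count in each of the 6 libraries (horizontal log axis) for the tested NOTCH receptors and ligands (left) and target genes (right), with 1 point per library, colour for the group and shape for the replicate number. NOTCH1 sits at 48.0 and 49.5 in the knockdown, next to one RBPJ knockdown library at 50.0, while the control libraries are at 69.6 and 139.8; NOTCH3, listed among the targets too, is drawn once.

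The 12 genes of smallest p that were higher in both knockdown libraries were of mixed kinds. B3GNT6, which builds the core structure that starts a class of mucin-type glycans, had 117 and 106 in control embryos, compared with 527 and 272 in knockdown embryos, with a fold change of 1.76 ± 0.29 (SE). GATA5, a zinc finger factor of endoderm and heart, had 31.7 and 57.8 in the controls and 110.3 and 155 with NOTCH1 knocked down and a fold change of 1.59. AGO3, an Argonaute protein that binds small RNAs, was a gene of few counts, with 15.1 and 9.57 in the control libraries against 54.8 and 46.0 after knockdown. LAMA1, the laminin alpha chain of the first basement membranes, had 353 and 214 in control embryos, compared with 792 and 654 in knockdown embryos. In each of these genes the knockdown libraries stood clear of the controls, as the rule that named them asks.

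SHROOM1, a protein of the family that organises apical actin and myosin, had 277 and 238 in the controls and 459 and 432 with NOTCH1 knocked down, and the libraries within each group differed little. MYADM, a membrane protein of lipid rafts, had 3034 and 3395 in the control libraries against 4819.5 and 4434 after knockdown, a fold change of 0.53 ± 0.10 (SE) at high counts. SERPINH1, the collagen chaperone, had 599 and 522 in control embryos, compared with 985 and 858 in knockdown embryos. In each of these genes the gap between the groups exceeded the gap within either. AMER2, a regulator of WNT signalling, had 421 and 448 in the controls and 861 and 625 with NOTCH1 knocked down. LRRN2, a leucine-rich repeat membrane protein, had 126 and 113 in the control libraries against 239 and 227 after knockdown. Of this pair LRRN2 had the closer replicates. KIAA1671 had 78.8 and 74.5 in control embryos, compared with 170.4 and 209 in knockdown embryos. PDZD4, a protein with a PDZ domain, had 773 and 871 in the controls and 1132 and 1353 with NOTCH1 knocked down. JSP.1, a bovine class I histocompatibility gene with close copies that can share reads, had 568 and 584 in the control libraries against 909 and 983 after knockdown. Their fold changes ran from 0.53 for MYADM to 1.29 for KIAA1671, and adjusted p was 0.348 for all 12 genes (limma).

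The 12 genes of smallest p that were lower were of mixed kinds too. CYP1A1, the cytochrome that the aryl hydrocarbon receptor induces, had 470.0 and 231 in control embryos, compared with 81.7 and 87.2 in knockdown embryos, a fold change of -1.95 ± 0.34 (SE). The controls differed from each other, and both knockdown libraries were still far below the lower one. MT2A, a metallothionein that binds zinc and other metals, had 376 and 352 in the controls and 186 and 189 with NOTCH1 knocked down; both groups were tight. GSTM3, a glutathione transferase, had 159 and 166 in the control libraries against 44.9 and 92.7 after knockdown. GLYAT, which couples glycine to acyl groups, had 2307 and 2221 in control embryos, compared with 1618 and 1564 in knockdown embryos. SAT1, which acetylates polyamines for their breakdown, had 389 and 523 in the controls and 234 and 275 with NOTCH1 knocked down.

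Among the rest, PHGDH, which starts the synthesis of serine from a glycolytic intermediate, had 275 and 305 in the control libraries against 157 and 169 after knockdown. CENPI, a protein of the inner kinetochore, had 888 and 921 in control embryos, compared with 545 and 631 in knockdown embryos. LIN52, a subunit of the MuvB complex that controls cell cycle genes, had 159 and 219 in the controls and 84.6 and 91.0 with NOTCH1 knocked down, and the RBPJ knockdown was as low, at 97.8 and 91.9. TCAM1, a cell adhesion molecule named after the testis, had 139 and 177 in the control libraries against 61.3 and 75.4 after knockdown. C21H15orf40 had 268 and 246 in control embryos, compared with 137 and 129 in knockdown embryos. IER3IP1, a small protein of the endoplasmic reticulum, had 595 and 495 in the controls and 341 and 359 with NOTCH1 knocked down. These genes did not overlap between groups, as the rule that named them asks. RPL39, a protein of the large ribosomal subunit, had 3625 and 3810.3 in the control libraries against 2869 and 2655 after knockdown, and processed copies of such genes can share its reads. The fold changes of these 12 genes ran from -1.95 for CYP1A1 to -0.43 for RPL39, with adjusted p of 0.348 to 0.357 (limma).

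The embryos injected against RBPJ shared some of these values and not others, although both knockdowns are set against the same 2 control libraries. B3GNT6 had 427 and 264 there, PDZD4 1250.4 and 1202 and AGO3 23.5 and 37.8, all above both controls. KIAA1671, LRRN2, MYADM, SERPINH1 and AMER2 also lay above both controls there. CENPI, PHGDH, LIN52, GLYAT, IER3IP1 and RPL39 lay below both, as in the NOTCH1 knockdown. GATA5, LAMA1, JSP.1, CYP1A1 and C21H15orf40 overlapped with the controls. SHROOM1, at 279 and 294, MT2A, at 285 and 369.5, TCAM1, at 131 and 129, GSTM3, at 162 and 143, and SAT1, at 618 and 445, stood nearer to the control. Of these, SHROOM1 lay just above both controls and TCAM1 just below both. In the direct contrast of the NOTCH1 with the RBPJ knockdown, the log2 difference was -1.05 for SAT1, -0.79 for MT2A, -1.23 for GSTM3 and 0.64 for SHROOM1. The limma adjusted p of these differences was 0.648, 0.684, 0.826 and 0.826, so none of them passed. RBPJ was the 1 gene of 12101 (0.00826%) that passed in that contrast, and 441 genes (3.64%) had an unadjusted limma p below 0.05 there.

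**Figure D3:**
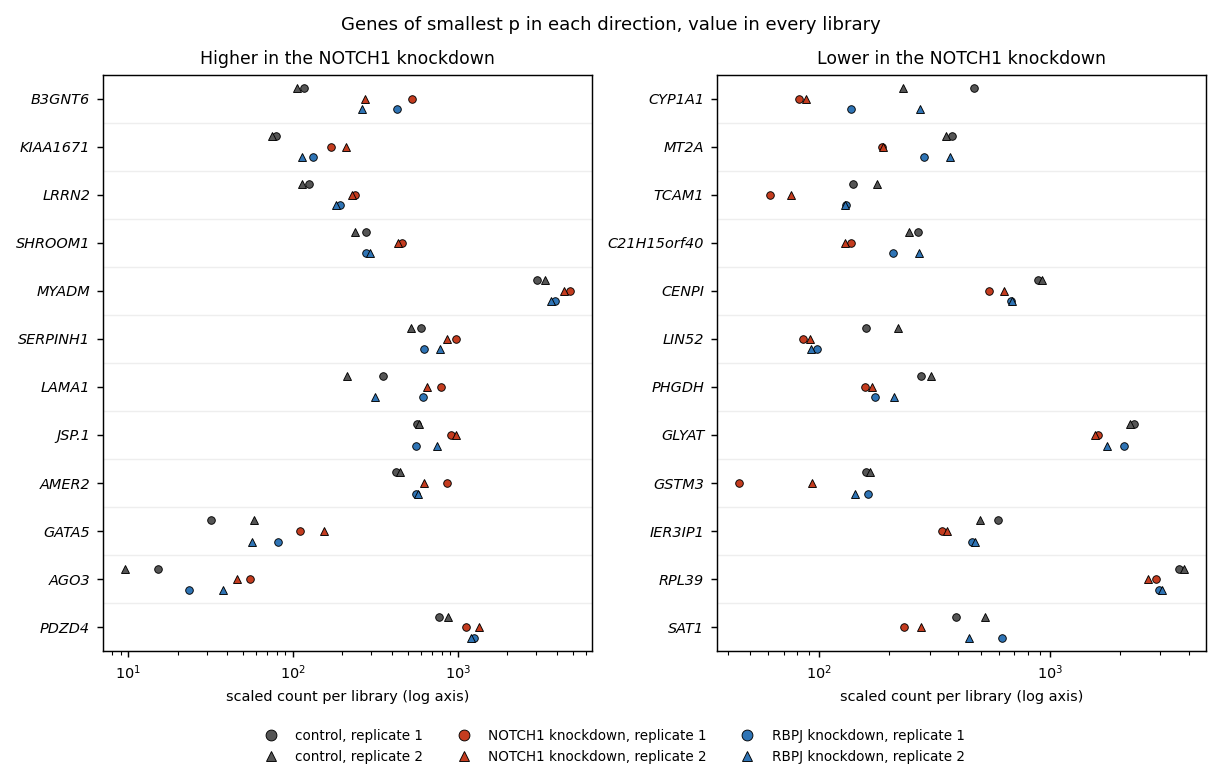
Scaled count in each library (horizontal log axis) for the 12 genes of smallest p that were higher (left) and the 12 that were lower (right) in both NOTCH1 knockdown libraries than in both controls. Colour marks the group and shape the replicate number; the RBPJ knockdown points of B3GNT6 and PDZD4 lie with the NOTCH1 knockdown, and those of SHROOM1 and GSTM3 with the control.

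Relative counting error is smallest for genes of high counts, and there the differences were smaller. Where a mean reached 1000 and the groups lay apart, the 5 largest upward differences included that of PDZD4, given above. GSN, gelsolin, which severs actin filaments, had 982 and 1693 in control embryos, compared with 2523 and 2075 in knockdown embryos, a fold change of 0.83 ± 0.20 (SE). That value was 1.22 without replicate 2 of the control and 0.43 without replicate 1. DNMT3B, a de novo DNA methyltransferase, had 1317 and 1027 in the controls and 2724 and 1529.5 with NOTCH1 knocked down, and its lower knockdown library was nearer to the controls than to the other knockdown library. KLK6, a secreted serine protease, had 1088 and 1533 in the control libraries against 2067 and 2091 after knockdown. FASN, fatty acid synthase, had 6344 and 5329 in control embryos, compared with 9933 and 7784 in knockdown embryos, and the RBPJ knockdown spanned both groups, at 8555 and 5105.

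Downward at this level, CSF1R, the receptor of a macrophage growth factor, had 1156 and 1829 in the controls and 843 and 976 with NOTCH1 knocked down, a fold change of -0.68 ± 0.18 (SE). RPL12, another ribosomal protein gene, had 1624 and 1367 in the control libraries against 1300.4 and 710.0 after knockdown, with 1 knockdown library close to the controls. SULT1C4, a sulfotransferase of small molecules, had 1265 and 1802 in control embryos, compared with 1077 and 919 in knockdown embryos and was not lower in the RBPJ knockdown, at 1797 and 1617 (direct contrast -0.78; limma, adjusted p = 0.661). ZC3H10, a zinc finger protein that binds RNA, had 2088 and 1847 in the controls and 1591 and 1196 with NOTCH1 knocked down. GLYAT was the remaining one of these 5.

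Above a mean of 100, 15 genes differed 2-fold or more with groups apart, 7 upward and 8 downward, and those not yet given are named here after their values were seen. Upward, COL18A1, a collagen found in basement membranes, had 67.6 and 44.8 in the control libraries against 179.9 and 132 after knockdown. UCP2, a carrier of the inner mitochondrial membrane, had 94.1 and 78.4 in control embryos, compared with 236 and 138 in knockdown embryos. TMC4, a membrane protein of the transmembrane channel-like family, had 75.0 and 78.5 in the controls and 445 and 124 with NOTCH1 knocked down, and 1 knockdown library carried most of that difference. Downward, MEP1B, a subunit of the protease meprin, had 167 and 141 in the control libraries against 52.1 and 89.4 after knockdown. RADX, a factor at replication forks, had 98.3 and 178 in control embryos, compared with 50.1 and 69.8 in knockdown embryos. ADAMTS4, a protease of the extracellular matrix, had 184 and 242 in the controls and 56.2 and 165 with NOTCH1 knocked down. In ADAMTS4, 1 knockdown library lay near the controls. TNFAIP2 had 118 and 193 in the control libraries against 74.6 and 68.9 after knockdown. CYP1A1, GSTM3, TCAM1, LIN52, B3GNT6, KIAA1671, LAMA1 and APOE made up the rest.

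Markers of the hypoblast, the inner layer that will line the yolk sac, had a median fold change of 0.17 in the knockdown. Of 27 tested, 12 lay higher and 1 lower in both knockdown libraries than in both controls, against 18.6% and 17.2% of all genes, and 9 were higher at an unadjusted limma p below 0.05 (background 4.56%). SERPINH1 and LAMA1, given above, were among them. NID2, nidogen, which links laminin to collagen, had 2748 and 2309 in control embryos, compared with 3206 and 3429 in knockdown embryos. APOE, a lipid carrier, had 99.4 and 149 in the controls and 216 and 291 with NOTCH1 knocked down. Of members outside the naming rule, FN1, fibronectin, had 37166 and 38800.2 in the control libraries against 59509.9 and 45873 after knockdown. GATA6, a factor that sets hypoblast fate, had 7103 and 9492 in control embryos, compared with 10556 and 10409.5 in knockdown embryos. HNF4A, an endoderm factor of few counts, had 10.6 and 26.2 in the controls and 35.8 and 40.9 with NOTCH1 knocked down. The knockdown libraries lay above both controls in each of these genes, which were named by the naming rule or after their values were seen. Not every member followed. LAMB1, a laminin beta chain, had a fold change of -0.02, PDGFRA, a hypoblast receptor, -0.10, and COL4A1, of basement membrane collagen, -0.14. The list's median ran from 0.14 without replicate 1 of the control to 0.27 without replicate 2 of the control. In pools of whole embryos, more cells of a type and more RNA per cell cannot be told apart. Across the list, RBPJ knockdown embryos had a median fold change of 0.24 over the same controls. In the direct contrast of the 2 knockdowns the list's median was 0.04. Library medians relative to each gene's mean were -0.23 and -0.04 for the controls, 0.06 and 0.12 for NOTCH1 and 0.12 and 0.09 for RBPJ. The shift of this list was thus shared by both knockdowns, which are set against the same controls. LAMA1 had 620.3 and 317 in the RBPJ knockdown, 1 library between the groups and 1 in the range of the controls. NID2 had 3318 and 3463 there, as high as in the NOTCH1 knockdown.

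Desmosome and keratin genes, which bind and stiffen epithelial cells, had the highest median of the 34 lists, at 0.26. Of 18 tested, 7 lay higher and 0 lower in both knockdown libraries than in both controls (background 18.6% and 17.2%). DSP, desmoplakin, which ties keratin filaments to the desmosome, had 1777 and 1781 in the control libraries against 2538 and 2360.0 after knockdown, a fold change of 0.46 ± 0.11 (SE), and its 2 libraries agreed closely within each group. JUP, plakoglobin, had 2981 and 3500.4 in control embryos, compared with 5349 and 4228 in knockdown embryos. PKP3, plakophilin, had 298 and 260.0 in the controls and 505 and 307 with NOTCH1 knocked down. Single omissions took that median from 0.15 without replicate 1 of the knockdown to 0.41 without replicate 2 of the knockdown, so replicate 1 of the knockdown carried much of it. Relative to each gene's mean, the list stood at -0.03 and -0.18 in control embryos and at 0.31 and 0.04 in the knockdown. The RBPJ knockdown had a list median of 0.06 over the same controls, and the direct contrast of the 2 knockdowns had one of 0.25.

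Genes of adherens junctions, tight junctions and cell polarity were higher by sign in 31 of 34 cases, against 51.1% of all genes. In 14 of them the groups did not overlap (background 18.6%), and in 0 the knockdown was lower in that sense (17.2%). The median level of the list was 1370 scaled counts. Of all 2348 genes with a mean of 1000 or more, 176 were higher and 29 lower at an unadjusted limma p below 0.05. Whether level has a part in the counts of this list was not tested. NECTIN2, an adhesion receptor of adherens junctions, had 1031 and 1201 in the control libraries against 1930.3 and 1447 after knockdown. PRKCZ, an atypical protein kinase C of the apical polarity complex, had 684 and 788 in control embryos, compared with 1067 and 929 in knockdown embryos. CLDN10, a tight junction claudin, had 423 and 399 in the controls and 618 and 498 with NOTCH1 knocked down. Another claudin, CLDN3, had 63.4 and 42.4 in the control libraries against 86.8 and 88.4 after knockdown. In NECTIN2 and CLDN10 replicate 1 of the knockdown was well above replicate 2. The RBPJ knockdown had a list median of 0.05 over the same controls, and the direct contrast of the 2 knockdowns had one of 0.14. The fold changes of NECTIN2, PRKCZ, CLDN10 and CLDN3 were 0.59, 0.44, 0.43 and 0.74, while the median of the list was 0.14 and ran from 0.07 without replicate 1 of the knockdown to 0.26 without replicate 2 of the knockdown. Among 14 blastocoel fluid transporters 5 lay higher and 1 lower in both knockdown libraries than in both controls; SCNN1A, a subunit of the epithelial sodium channel, had 234 and 284 in control embryos, compared with 359 and 413 in knockdown embryos, and the list's median of 0.09 ran from -0.10 without replicate 1 of the control to 0.19 without replicate 2 of the control.

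Actomyosin and compaction genes, which pull the cells of a morula together, had a median of 0.16 over 33 members, whose median level was 2338. Of these, 13 lay higher and 1 lower in both knockdown libraries than in both controls (background 18.6% and 17.2%). Besides SHROOM1, FLNA, the actin crosslinker filamin, had 2937 and 2389 in the controls and 4133 and 3632 with NOTCH1 knocked down. VCL, vinculin, had 2073 and 1797 in the control libraries against 2405 and 2567 after knockdown. ZYX, zyxin, a protein of focal adhesions, had 5235 and 7071 in control embryos, compared with 7742 and 7604 in knockdown embryos. All these are genes of high counts, with fold changes of 0.55, 0.36 and 0.33. The Hippo pathway passes cell contact and polarity on to the coactivator YAP1 and the TEAD factors. Of its 32 members 11 lay higher and 4 lower in both knockdown libraries than in both controls, with a median of 0.16. YAP1 had 471 and 455 in the controls and 609.6 and 609 with NOTCH1 knocked down. TEAD2 had 199.9 and 165 in the control libraries against 288 and 231 after knockdown. TEAD3 had 1589 and 1661 in control embryos, compared with 1988 and 1899 in knockdown embryos, whereas VGLL4, which competes with YAP1 for TEAD factors, was lower, with 629 and 631 in the controls and 523 and 469 with NOTCH1 knocked down. Without replicate 1 of the knockdown the medians of the 2 lists were 0.07 and 0.12. In the RBPJ knockdown they were 0.09 and 0.04 over the same controls, and in the direct contrast 0.08 and 0.10.

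Trophectoderm markers had a median fold change of 0.20 over 26 genes. Of these, 8 lay higher and 2 lower in both knockdown libraries than in both controls (background 18.6% and 17.2%). GATA3 and CDX2 are given above. MSX2, a homeobox factor, had 1021 and 1085 in the control libraries against 1461 and 1307 after knockdown, while the RBPJ knockdown had 1081 and 973 (direct contrast 0.43; limma, adjusted p = 0.999). TFAP2A, of few counts, had 31.1 and 20.0 in control embryos, compared with 6.37 and 8.63 in knockdown embryos, lower in both knockdown libraries. With 1 library left out the list's median ran from 0.11 without replicate 1 of the knockdown to 0.40 without replicate 2 of the knockdown. Relative to each gene's mean the list stood at 0.30 in replicate 1 of the knockdown and at 0.05 in replicate 2. In the control it stood at -0.15 and -0.03. The RBPJ knockdown had a list median of -0.03 over the same controls, and the direct contrast of the 2 knockdowns had one of 0.16.

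The 24 tested genes that mark the inner cell mass and pluripotency had a median fold change of 0.12. That median ran from 0.09 without replicate 1 of the knockdown to 0.20 without replicate 2 of the knockdown. Of these genes 9 lay higher and 1 lower in both knockdown libraries than in both controls (background 18.6% and 17.2%). LIN28A, an RNA-binding protein that blocks let-7 processing, had 544 and 466 in the controls and 812 and 719 with NOTCH1 knocked down. TBX3, a T-box factor of pluripotent cells, had 6128 and 6449.7 in the control libraries against 8185 and 7789.9 after knockdown. With DNMT3B, these are the 3 members at an unadjusted limma p below 0.05, of 24 (background 4.56%). NANOG, a factor of the epiblast that is outside the naming rule, had 174 and 159 in control embryos, compared with 125 and 200.3 in knockdown embryos and overlapped between groups. Markers of hypoblast, trophectoderm and inner cell mass thus all had medians above the 0.01 of all genes.

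Oocyte and maternal transcripts had the lowest median of the 34 lists, at -0.51 over 35 genes. Of these, 3 lay higher and 13 lower in both knockdown libraries than in both controls (background 18.6% and 17.2%). H1FOO, the linker histone of the oocyte, had 40.9 and 51.7 in the controls and 1.04 and 17.1 with NOTCH1 knocked down. BTG4, outside the naming rule, an adaptor for the deadenylation of maternal messengers, had 107 and 113 in the control libraries against 11.2 and 63.7 after knockdown. YBX2, a protein that packages stored messengers, had 307 and 469 in control embryos, compared with 247 and 270.2 in knockdown embryos. CNOT6L, a deadenylase, had 453 and 464 in the controls and 285 and 375 with NOTCH1 knocked down. KIT, the receptor of stem cell factor, was higher instead, with 805 and 702 in the control libraries against 1022 and 1024 after knockdown. In H1FOO and BTG4 replicate 1 of the knockdown was far below replicate 2. As a list they stood at -0.05 and 0.47 in control embryos and at -0.39 and 0.15 in the knockdown, so replicate 2 of the knockdown lay above replicate 1 of the control. The list's median ran from -0.62 without replicate 2 of the knockdown to -0.07 without replicate 1 of the knockdown, was -0.25 without replicate 2 of the control, and was -0.06 among members with a mean of at least 100. Cumulus, granulosa and fibroblast markers were as low in replicate 1 of the knockdown, at -0.43, as were blood and immune cell markers, at -0.35. Whether the shift of transcripts of few counts in that library has a part in these values was not tested.

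**Figure D4:**
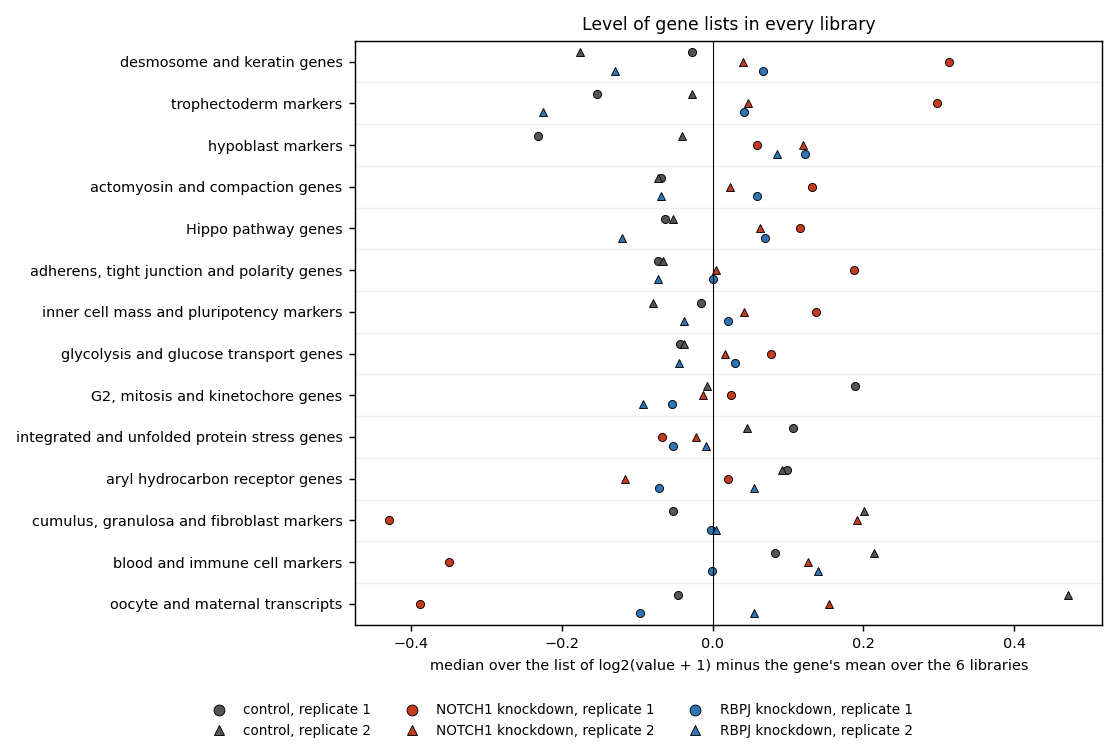
Level of 14 gene lists in each of the 6 libraries, as the median over a list's tested members of log2(value + 1) minus the gene's mean over the 6 libraries (horizontal axis), with colour for the group and shape for the replicate number. Replicate 1 of the NOTCH1 knockdown is at the outer edge of most lists, at 0.31 for desmosome and keratin genes and at -0.39 for oocyte and maternal transcripts, while replicate 2 of the same group is at 0.04 and 0.15.

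In the lists that mark other cell types, only a part of the members reached the minimum mean. Of 20 cumulus, granulosa and fibroblast markers 13 were tested, and their summed level was 1009.9 and 1164 without and 941 and 1103 with the knockdown. Of those tested, 2 lay higher and 2 lower in both knockdown libraries than in both controls (background 18.6% and 17.2%). CYP19A1, aromatase, had the smallest p of them, with 114 and 119 in control embryos, compared with 141 and 172 in knockdown embryos. For blood and immune cells 6 of 18 markers were tested, and their summed level was 2343 and 3338 without and 2051 and 2566 with the knockdown. CSF1R and HBA, a haemoglobin chain, made up most of that sum, and HBB, the partner of HBA, stayed at or below 8.63 in these 4 libraries. Their part in other results was not tested.

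Among aryl hydrocarbon receptor genes, which sense and break down aromatic compounds, the receptor, CYP1A1 and CYP1B1 were lower. The enzymes CYP1A2 and ALDH3A1 were under the minimum mean. CYP1B1, a second inducible cytochrome, had 227 and 101 in the controls and 23.1 and 73.0 with NOTCH1 knocked down, a fold change of -1.86 ± 0.48 (SE). AHR, the receptor, had 35.9 and 48.0 in the control libraries against 27.6 and 19.4 after knockdown. Both knockdown libraries were below both controls in 8 of 14 genes (background 17.2%) and above in 3 (18.6%). The list's median fold change was -0.12, and that of the RBPJ knockdown over the same controls was -0.09. Its summed level was 39756 and 37616 in the controls and 40648 and 40790 with NOTCH1 knocked down. NQO1, outside the naming rule, had 20.1 and 20.7 in control embryos, compared with 10.2 and 9.69 in knockdown embryos, but TIPARP, another target of the receptor, had 151 and 205 in the controls and 222 and 165 with NOTCH1 knocked down. The RBPJ knockdown had 138 and 274 for CYP1A1 and 66.7 and 93.6 for CYP1B1. For CYP1A1 both were above the NOTCH1 knockdown, and for CYP1B1 both were below the controls. With MT2A, the metal genes at an unadjusted limma p below 0.05 were 2 of 22, both lower (background 2.72%). The other was TFRC, the transferrin receptor, with 6259 and 5741 in the control libraries against 4420.1 and 4934 after knockdown. In that list 2 lay higher and 8 lower in both knockdown libraries than in both controls. Its median of -0.11 ran from -0.15 to -0.04 with 1 library left out.

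In the integrated and unfolded protein stress responses 31 of 38 genes had a lower mean, against 48.9% of all genes. The groups did not overlap in 15 of them (background 17.2%). HSPA5, a chaperone in the lumen of the endoplasmic reticulum, had 2955 and 2759 in control embryos, compared with 2159 and 2342 in knockdown embryos. PSPH, which completes serine synthesis after PHGDH, had 392 and 237 in the controls and 176 and 206 with NOTCH1 knocked down, with 1 control library near the knockdown. SLC7A5, an amino acid transporter, was higher, with 5418 and 6147 in the control libraries against 6957 and 6639.8 after knockdown. Among 29 serine and one-carbon enzymes 4 lay higher and 9 lower in both knockdown libraries than in both controls (background 18.6% and 17.2%). AHCY, which splits S-adenosylhomocysteine, had 5867 and 5628 in control embryos, compared with 7870.0 and 7295 in knockdown embryos. GART, of purine synthesis, had 2223 and 1927 in the controls and 1657 and 1729 with NOTCH1 knocked down. The medians of the 2 lists were -0.15 and -0.08. The former was -0.09 without replicate 1 of the knockdown, and the latter was 0.04 without replicate 1 of the control. In the RBPJ knockdown these medians were -0.12 and -0.11 over the same controls. In the direct contrast of the 2 knockdowns they were -0.03 and 0.03.

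For glycolysis and glucose uptake the median was 0.13 over 28 genes. Of these, 10 lay higher and 3 lower in both knockdown libraries than in both controls (background 18.6% and 17.2%). LDHA, lactate dehydrogenase, had 470.2 and 283 in the control libraries against 606 and 523 after knockdown. HK1, hexokinase, had 1128 and 1109 in control embryos, compared with 1440.0 and 1329 in knockdown embryos. SLC2A1, the glucose transporter, had 3276 and 3712 in the controls and 4611 and 3964 with NOTCH1 knocked down. PFKFB3, which makes an activator of glycolysis, had 62.8 and 68.0 in the control libraries against 30.1 and 39.2 after knockdown. Without replicate 1 of the knockdown the median was 0.05. With B3GNT6, 7 genes of 27 in the list of mucin-type and N-acetylglucosaminyl transferases were higher without overlap. B3GNT3, a related enzyme, had 178 and 193 in control embryos, compared with 283 and 272 in knockdown embryos. ST6GALNAC1, a sialyltransferase, had 335 and 403 in the controls and 457 and 509 with NOTCH1 knocked down. GALNT10, which starts mucin-type chains, had 346 and 358 in the control libraries against 410.1 and 498 after knockdown. In that list 0 were lower in that sense, and the median of 0.13 was 0.05 without replicate 1 of the knockdown. Of 25 lysosomal genes 4 lay higher and 3 lower in both knockdown libraries than in both controls; TFEB, a factor that drives lysosomal genes, had 395 and 448 in control embryos, compared with 657 and 507 in knockdown embryos. CTSL, a cathepsin, had 859 and 977 in the controls and 1175 and 1283 with NOTCH1 knocked down.

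Signalling lists had medians near that of all genes. Of 46 WNT pathway genes 11 lay higher and 5 lower in both knockdown libraries than in both controls (background 18.6% and 17.2%). Their median was 0.04. RSPO3, a secreted WNT amplifier, had 440.4 and 455 in the control libraries against 576 and 636 after knockdown. FZD10, a receptor, had 396 and 413 in control embryos, compared with 526 and 552 in knockdown embryos. LRP5, a coreceptor, had 476 and 411 in the controls and 668 and 536 with NOTCH1 knocked down. As the rule that named them asks, both knockdown libraries were above both controls in each of them. WNT6, a ligand, had 296 and 266 in the control libraries against 626 and 355 after knockdown, and 1 knockdown library was far above the other. For TGF-beta, NODAL and BMP genes the counts were 4 higher and 7 lower of 44. TGFB1 had 1227 and 1164 in control embryos, compared with 1456 and 1708 in knockdown embryos. LTBP3, which binds latent TGF-beta, had 179 and 239.6 in the controls and 305 and 288 with NOTCH1 knocked down. BMP4, a ligand, had 483 and 597 in the control libraries against 344 and 477 after knockdown. FGF, MAPK and immediate early genes had 5 higher and 7 lower of 44. FGFR4, the receptor, had 3323 and 4149.9 in control embryos, compared with 4654 and 4806 in knockdown embryos. FOSB, an immediate early factor, had 54.5 and 120.0 in the controls and 30.2 and 48.8 with NOTCH1 knocked down.

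Of the cell cycle lists, 47 of 56 G2, mitosis and kinetochore genes had a lower mean (48.9% of all genes), but their median of -0.11 ran from -0.21 without replicate 2 of the control to -0.01 without replicate 1 of the control. After CENPI, CDC25B, a phosphatase that starts mitosis, had 379.8 and 353 in the control libraries against 242 and 229 after knockdown. CKS1B, a subunit of cyclin-dependent kinases, had 425 and 496 in control embryos, compared with 301 and 383 in knockdown embryos. PTTG1, securin, had 1068 and 905 in the controls and 772 and 818 with NOTCH1 knocked down. Among regulators of G1, CCND3, a D-type cyclin, had 479 and 432 in the control libraries against 766 and 547 after knockdown. MXI1, an antagonist of MYC, had 80.9 and 162 in control embryos, compared with 50.4 and 72.6 in knockdown embryos. Ribosomal protein genes had a median of -0.08 over 75 genes, with 19 lower and 8 higher without overlap (background 17.2% and 18.6%). That median ran from -0.13 without replicate 2 of the control to -0.01 without replicate 1 of the control. Over the same controls the RBPJ knockdown had a median of -0.18 for G2, mitosis and kinetochore genes. For ribosomal protein genes its median was -0.15. In the direct contrast of the 2 knockdowns the median was 0.08 for each of these lists.

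DNA methylation enzymes split. DNMT3A, a de novo enzyme like DNMT3B, had 2527 and 2249.8 in the controls and 3862 and 2854 with NOTCH1 knocked down, whereas UHRF2, a relative of the maintenance factor UHRF1, had 311 and 343 in the control libraries against 219.6 and 213 after knockdown. In the RBPJ knockdown DNMT3A had 2592 and 2107, and the direct contrast was 0.51 (limma, adjusted p = 0.999). Of 28 apoptosis regulators 6 lay higher and 6 lower in both knockdown libraries than in both controls (background 18.6% and 17.2%). BCL2L1, which protects cells, had 1565 and 1599.8 in control embryos, compared with 2024 and 1869 in knockdown embryos. FAS, a death receptor of few counts, had 30.6 and 20.7 in the controls and 54.2 and 47.4 with NOTCH1 knocked down. Small RNA machinery other than AGO3 included AGO2, the slicing Argonaute, at 909 and 879 in the control libraries against 847 and 710.1 after knockdown, and DICER1 at 250.2 and 195 in control embryos, compared with 259 and 263 in knockdown embryos; both are named after their values were seen. Of 36 interferon-stimulated genes 15 were tested, with 9 higher and 6 lower by sign. Of those tested, 4 lay higher and 2 lower in both knockdown libraries than in both controls. IRF1 had 144 and 186 in the controls and 242 and 212 with NOTCH1 knocked down and IFI35 121 and 95.9 in the control libraries against 196 and 141 after knockdown. The median of that list, 0.21, was -0.17 without replicate 2 of the control. For the 13 genes of the mitochondrial genome the median was 0.10, and it was 0.19 without replicate 1 of the control. Quantile normalization brought it to 0, but that scaling sets equally ranked rows alike in every library. These genes rank high, at a median level of 24330, so that value cannot show whether they changed. ND3, a subunit of complex I, had 12207 and 13557 in control embryos, compared with 15446 and 14374 in knockdown embryos. Embryonic genome activation genes, 12 tested, had a median of 0.00, with OTX2 at 1034 and 1049 in the controls and 1195 and 1308 with NOTCH1 knocked down.

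Leaving out 1 library turned the sign of the median of 12 of the 34 lists, and moved that of 21 others by over 1.5 times, the Hippo list being the remaining one.

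**Figure D5:**
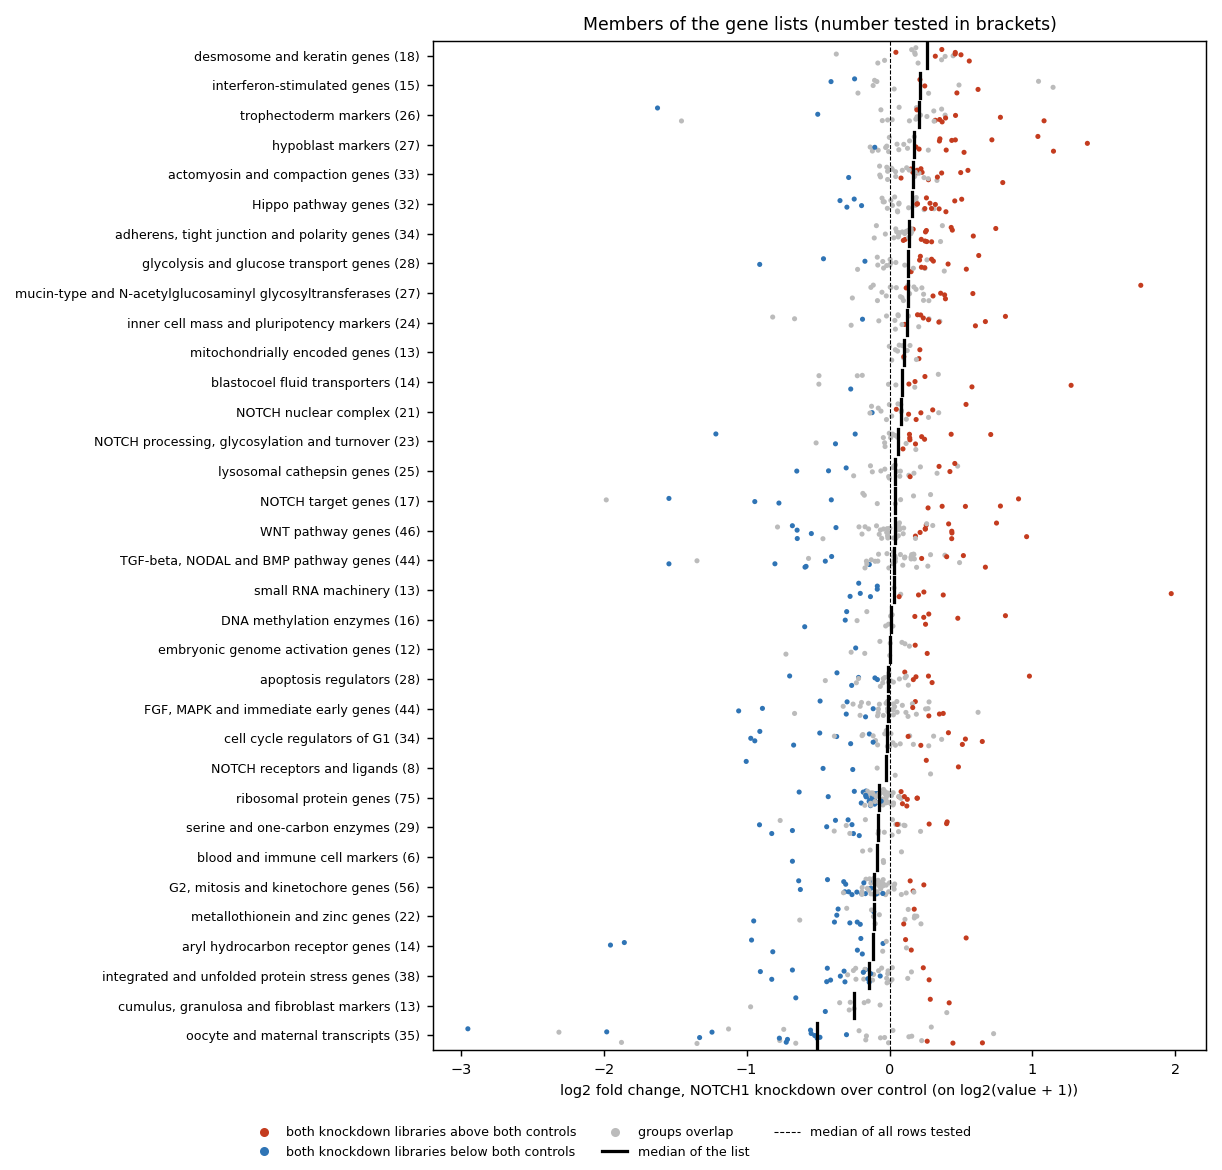
Log2 fold change of the NOTCH1 knockdown over the control (horizontal axis, on log2(value + 1)) for each tested member of 34 gene lists, one point per gene, ordered by the list's median (black bar). Points are coloured where the 2 groups do not overlap; medians run from -0.51 for oocyte and maternal transcripts to 0.26 for desmosome and keratin genes, and the dashed line is the median of all rows, 0.01.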

How the data were processed

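RNA-seq of poly(A) RNA from pools of bovine late morulae gave 1 library per pool. The deposited table holds signal values, which are gene abundances on the scale of read counts that the authors had normalized between libraries. Salmon 0.14.1, DESeq2 and the ARS-UCD1.2 build are named, without role or order, per the submitters' processing notes. Spike-in transcripts named in the labels were not used here. Of low values, 80.6% to 82.6% lay within 0.1 of whole multiples of a library's best-fitting step, and the rest did not. Whole reads could thus not be recovered for all genes, and no count test was run. The steps put the depth near 9635210 to 13639900 reads per library.

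Of 17922 rows, 2551 name no gene (6.20% to 7.22% of a library's total) and were left out. Of the named rows, the 12101 averaging 10 or more across all libraries were kept. Another row with more counts bears the same symbol for 57 named rows; these are not named in the text. The 6 libraries were fitted together with limma 3.58.1 in R 4.3.3 on log2(value + 1), as group means with a mean-variance trend, leaving 3 residual degrees of freedom, and p-values were adjusted by Benjamini-Hochberg over all 12101 rows. The code was checked on simulated counts. Symbols of 12028 rows matched RefSeq names.

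The members and gene lists were chosen with earlier results of these data known. Named genes are NOTCH1, the tested NOTCH receptors, ligands and targets, the 12 genes of smallest p with groups apart in each direction, the 5 largest differences each way at a mean of at least 1000, and, per list, up to 4 genes with groups apart and an unadjusted p below 0.05, or else the gene of smallest p. POU5F1, KRT8, HBA, RBPJ, FN1, GATA6, HNF4A, LAMB1, PDGFRA, COL4A1, NANOG, BTG4, NQO1, TIPARP, AGO2, DICER1 and the genes given only for a 2-fold difference were named after their values were seen. Alternatives were other pseudocounts, filters and scalings, no trend, only the 4 libraries, a replicate block and each library left out. The plots used matplotlib 3.10.9 (Python 3.11.15).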

Additional observations from a re-analysis of the deposited data

Results flagged for a closer look

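RBPJ differed between the 2 knockdowns by 1.82 on the log2 scale, NOTCH1 minus RBPJ knockdown (limma, adjusted p = 0.00332), and was singled out because the difference between the 2 knockdown groups itself passed the test. Its scaled counts were 447 and 391 in control embryos, 361 and 399.6 after NOTCH1 knockdown and 121 and 94.5 after RBPJ knockdown, lowest in both libraries of the group injected against it. Groups of 2 libraries are too small for a test of single outlying libraries.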

How the results depend on the processing

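No gene passed an adjusted limma p below 0.05 under any pseudocount, filter, scaling, trend or library choice that kept 2 libraries per group, and the smallest adjusted p of those fits ran from 0.0669 with only the 4 libraries to 0.653 with no trend. Leaving out 1 library gave 0 to 1 such genes, the 1 being GSN without replicate 2 of the control (adjusted p = 0.0189). There the lone control library is assumed to vary like the other groups. At an unadjusted p below 0.05, leaving out 1 library gave 229 to 822 higher and 204 to 410 lower genes, the lowest of both without replicate 1 of the knockdown and the highest without replicate 2 of the control. A minimum mean of 100 left 192 lower genes, with fewer genes tested. The labels give only a number, and this comparison has 2 pairs, so the replicate numbers were not used as pairing in the values above. Same-numbered libraries deviated from their group means with r = 0.149 between control and NOTCH1 knockdown, 0.200 between control and RBPJ knockdown and 0.213 between the knockdowns. The replicate block on that number gave 135 genes at an adjusted p below 0.05 (86 higher, 49 lower), 913 higher and 560 lower genes at an unadjusted p below 0.05, and 4 named genes in place of 0 in the contrast of the 2 knockdowns. No pseudocount, filter or scaling turned the direction of a named gene. Leaving out 1 library did for 8, whose fold changes then ran -0.57 to 0.20 for CDKN1A, -0.47 to 0.55 for DLK2, -0.29 to 0.12 for HES2, -0.15 to 0.23 for ID1, -0.21 to 0.54 for ID2, -0.24 to 0.063 for JAG1, -0.067 to 0.22 for NFKB2 and -0.0033 to 0.58 for NOTCH3. For genes with a mean of 10 to 100 the median standard error of a fold change was 0.391, so differences of that size there lay within the error.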
